A study of Homo sapiens with 6 samples.

Results

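Protein arginine methyltransferases attach methyl groups to arginine residues of histones and RNA-binding proteins, and their expression was followed here through a stepwise model of fibroblast transformation. The genes were taken by name, with no filter on their values but with earlier results of these data known. They are PRMT1, PRMT2, PRMT3, CARM1, PRMT5, PRMT6, PRMT7 and PRMT8, together with WDR77, the obligate partner of PRMT5. Where a gene had several probe sets with a single symbol, the brightest on average was to be taken, but each of the 9 had just 1. All 9 were measured, among 18417 genes in total. Total RNA was hybridised to whole-transcript expression arrays for 3 human cell lines of common origin, each in 2 biological replicates. BJ are primary foreskin fibroblasts. BJEL are BJ cells to which hTERT (telomerase reverse transcriptase) and the early region of SV40 were added, and they were grown in G-418 and hygromycin. The early region encodes large T, which inactivates RB and p53. BJELM are BJEL cells transduced with a pBabe retrovirus for MYC fused to the estrogen receptor (MYC-ER), and they were grown in G-418, hygromycin, puromycin and, without interruption, 4-hydroxytamoxifen, the ligand that switches the fusion protein on. All 3 lines grew in the same mixture of basal media with fetal calf serum. Effects of the selection drugs and of 4-hydroxytamoxifen cannot be told apart from those of the introduced genes, and the sources used here do not give whether a line is a single clone.

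All of these enzymes take the methyl group from S-adenosylmethionine. Type I enzymes (PRMT1, PRMT2, PRMT3, CARM1, PRMT6 and PRMT8) leave both methyl groups on the same nitrogen of arginine (asymmetric dimethylarginine), type II enzymes such as PRMT5 spread them over both end nitrogens (symmetric dimethylarginine), and the type III enzyme PRMT7 stops at monomethylarginine. In proliferating cells the family is best known for histone marks at promoters, for methylation of the Sm proteins before they join spliceosomal particles, and for the glycine- and arginine-rich tails of RNA-binding proteins.

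A gene is said to have risen or fallen only where limma gave an adjusted p under 0.05 over all 18417 genes, and changes that also reached 2-fold are named as such. Signals are log2 probe set signals, a change is the difference of their line means ± its SE on that scale (n = 2 arrays in each line), and pairs of array values are given in the order replicate 1, replicate 2. Array medians lay between 7.18 and 7.27, and replicates correlated at 0.992 to 0.995 across genes. The mean signal of TERT was 7.82 in BJ, 10.84 in BJEL and, for the arrays labelled BJELM, 10.81. MYC had mean signals of 9.54, 10.17 and 9.24, and it fell by 0.93 between BJEL and the arrays labelled BJELM (adjusted p = 0.0444), which goes against that label as far as this probe set reads the introduced MYC. The study reports MYC-ER overexpression at the tumorigenic step by western blot, and it also lists RT-qPCR of the exogenous MYC at the RNA level. Its own assays of the introduced MYC were not analysed here. Whether this probe set reads the MYC-ER fusion was not tested. The term "arrays labelled BJELM" is kept for that reason. The fibroblast marker VIM did not pass the test in any comparison, while 10 of 12 fibroblast markers fell in BJEL and 11 of 12 on the arrays labelled BJELM, each against BJ. None of the 4 endothelial, 3 leukocyte and 3 melanocyte markers measured lay at or above the median level of all genes, 7.26, in any line (0 in each), and 3 of 7 epithelial markers did in each line. Proliferation markers moved with the lines as well: 8 of 8 rose in BJEL and 6 of 8 on the arrays labelled BJELM, each against BJ, and the log2 of their summed signal ran from 12.72 to 13.12 in BJ, from 13.80 to 13.95 in BJEL and from 13.58 to 13.60 on the arrays labelled BJELM. The part of these shifts in the values below was not tested. In bulk RNA, a change in the share of cells and a change in RNA per cell cannot be told apart.

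The promoters of PRMT3 and PRMT5 are shown because these genes carried the largest changes of the family, together with the stretch of WDR77 around its E-box, since WDR77 is the partner of PRMT5. The 250 bases before the RefSeq start site in GRCh38.p14 are given 5′ to 3′ on the strand of the gene for PRMT3 (chr11:20387466-20387715, plus strand) and PRMT5 (chr14:22929377-22929626, minus strand), and 30 bases for WDR77 (chr1:111449229-111449258, minus strand). Capitals mark the E-box CACGTG, the letters that MYC-MAX dimers are known to bind.
PRMT3: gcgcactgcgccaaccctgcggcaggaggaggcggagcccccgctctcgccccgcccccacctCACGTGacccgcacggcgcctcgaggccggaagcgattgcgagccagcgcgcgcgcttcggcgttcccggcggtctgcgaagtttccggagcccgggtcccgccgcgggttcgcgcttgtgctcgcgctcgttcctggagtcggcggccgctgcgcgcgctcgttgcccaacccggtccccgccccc
PRMT5: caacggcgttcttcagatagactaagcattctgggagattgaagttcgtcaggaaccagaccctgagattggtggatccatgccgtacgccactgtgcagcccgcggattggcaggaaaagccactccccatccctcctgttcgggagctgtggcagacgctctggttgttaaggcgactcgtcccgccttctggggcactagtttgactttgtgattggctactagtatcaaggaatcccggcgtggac
WDR77: tcagaggtgcacCACGTGgggtttgctgcc
The PRMT3 stretch is 76.8% G or C and the PRMT5 stretch 55.6%. Over the windows from 250 bases before to 50 after the start, the E-box was found on either strand in 2 of the 12 windows of these genes, in PRMT3 from position -187 to -182 and in WDR77 from position 11 to 16 after the start, against 7.26% of all 35116 windows. The letters TTTCCCGC or TTTGGCGC, which E2F proteins are known to bind, were found in 1 of the 12 windows, that of PRMT7 from position -27 to -20, against 2.27% of all windows. A match is a description of these letters and not of binding.

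The question asked of the lines is which genes change at immortalization (BJEL against BJ), over the whole route to the transformed state (BJELM against BJ) and at the MYC step (BJELM against BJEL). Over the whole route 6 of the 9 genes rose and 0 fell: PRMT1, PRMT3, CARM1, PRMT5, PRMT6 and WDR77, where 15.1% of all genes rose. PRMT3 and PRMT5 rose at least 2-fold, as did 4.09% of all genes, and PRMT6 joined them under either of 2 other scalings. At immortalization 4 of 9 rose (PRMT1, PRMT3, PRMT5 and WDR77; 10.4% of all genes) and at the MYC step 4 of 9 rose (PRMT1, PRMT3, CARM1 and PRMT5; 4.53% of all genes), with 0 of them at least 2-fold in either, where 2.89% and 0.923% of all genes were. No gene of the family fell in any comparison (0 of 9), while 7.13%, 13.1% and 6.28% of all genes fell at immortalization, over the whole route and at the MYC step. The median change of the 9 genes was 0.40 at immortalization, 0.49 over the whole route and 0.42 at the MYC step, beside medians over all genes of -0.017, 0.011 and 0.029. These 3 comparisons share arrays, so their values are set side by side and do not support each other. With the replicate number as a block, 7 of 9 passed the test at immortalization, 6 of them higher and PRMT2 lower. The share of all genes that passed with the block was not counted. Block counts, here and for the gene lists below, therefore have no background beside them and are not read as a result about these genes.

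**Figure D1:**
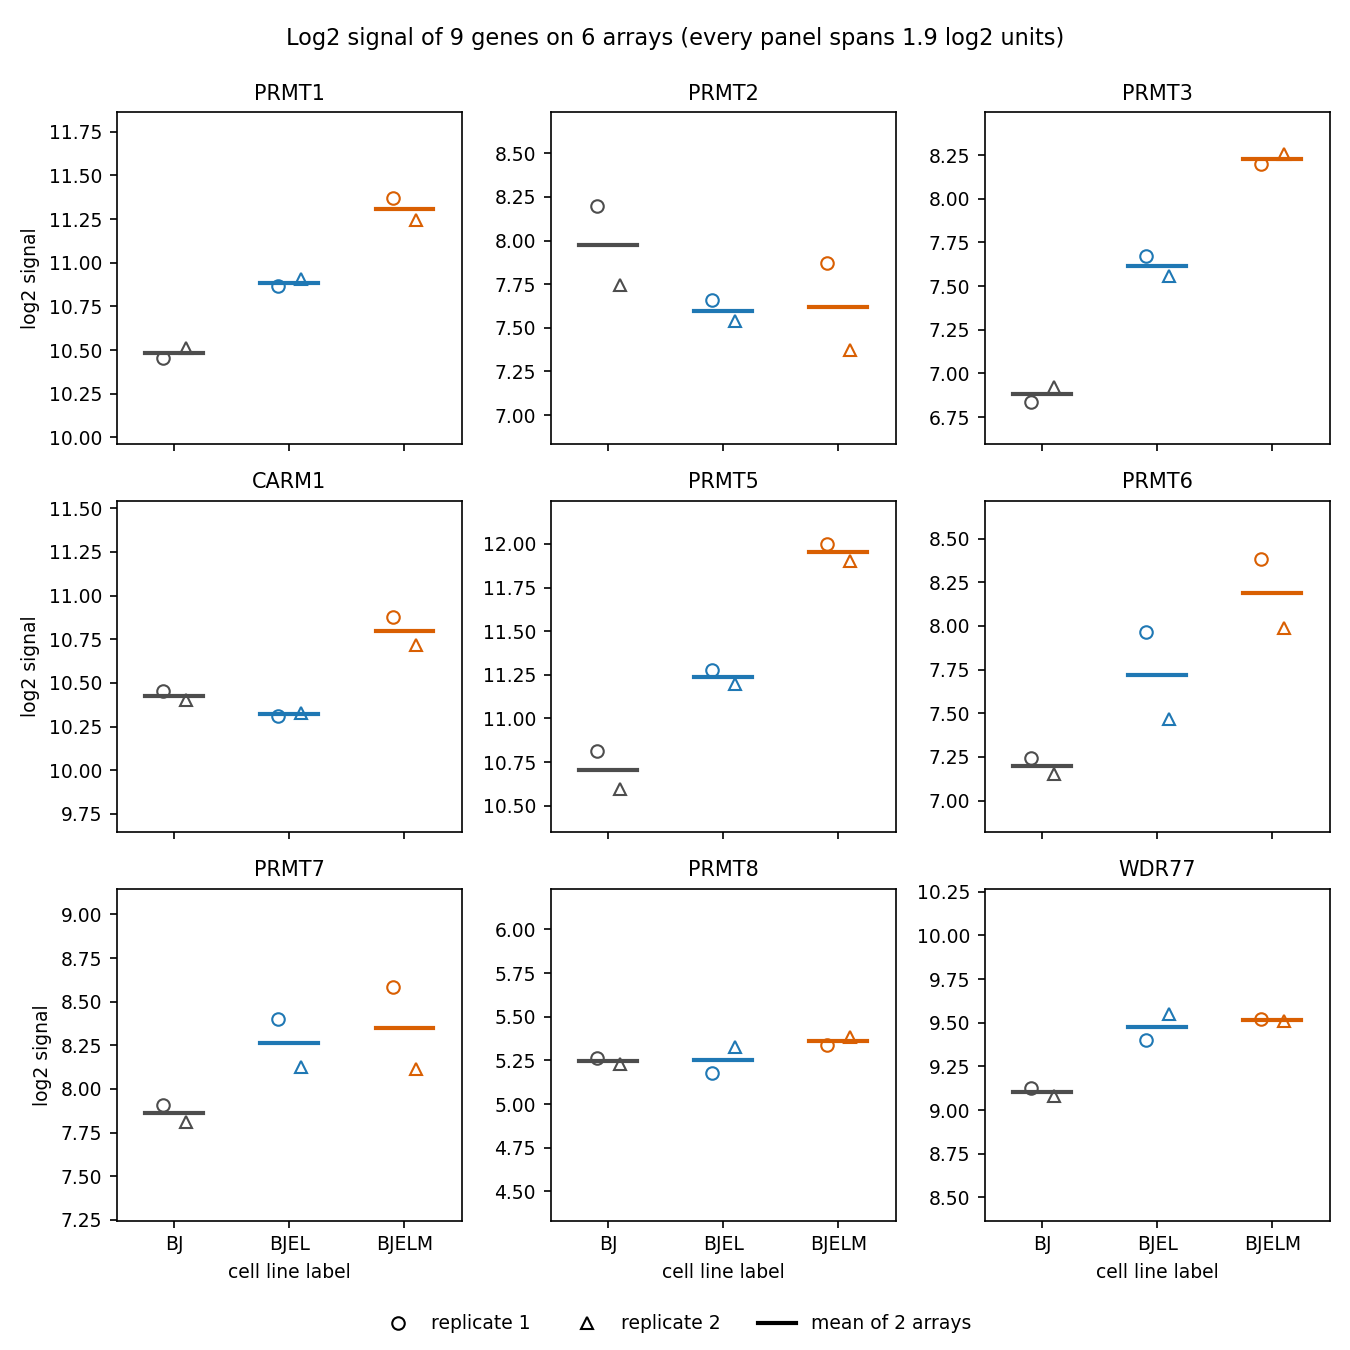
Log2 signal of each gene (vertical axis, spanning 1.9 log2 units in every panel) in the 3 cell lines as labelled (horizontal axis). Circles are replicate 1, triangles replicate 2 and bars the mean of the 2 arrays. PRMT1, PRMT3, PRMT5 and PRMT6 step up from line to line with no overlap, PRMT8 stays between 5.18 and 5.39, and the arrays of PRMT2, PRMT6 and PRMT7 are spread widely within a line.

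In 4 of the 9 genes (PRMT1, PRMT3, PRMT5 and PRMT6) both BJ arrays lay below both BJEL arrays and these below both arrays labelled BJELM, an order found in 8.38% of all genes. The plot of signals by cell line shows this order without overlap. Both arrays labelled BJELM were above both BJ arrays in 8 of 9 genes, all but PRMT2, as in 31.7% of all genes, and 0 lay below (28.8% of all genes). For BJEL over BJ this held in 6 of 9 genes (29.2% of all genes), and PRMT2 and CARM1 lay below BJ without overlap, as did 32.0% of all genes. At the MYC step 6 of 9 were higher without overlap (28.8% of all genes) and 0 lower (24.0% of all genes).

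**Figure D2:**
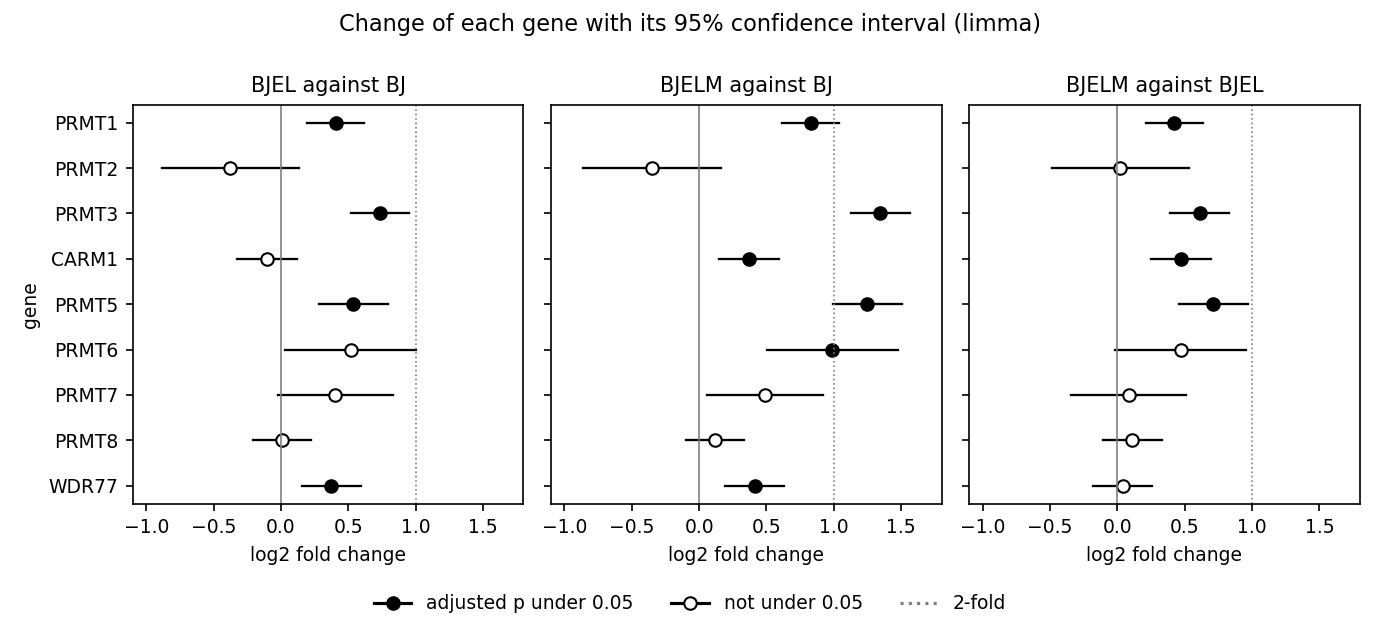
Log2 fold change of each gene (horizontal axis) with its 95% confidence interval from limma, in the 3 comparisons. Filled points passed an adjusted p of 0.05, open points did not, and the dotted line is 2-fold. PRMT3 and PRMT5 are past the dotted line in the arrays labelled BJELM against BJ, with changes of 1.35 and 1.25, and PRMT6 sits just short of it at 0.99.

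PRMT5 (Entrez 10419, probe set 7977820; chromosome 14, 22920529 to 22929376 in GRCh38.p14) makes symmetric dimethylarginine on histones and Sm proteins. Its signals were 10.81 and 10.60 in BJ, 11.28 and 11.20 in BJEL, and 12.00 and 11.90 on the arrays labelled BJELM, so that the lines did not overlap. The means were 10.70 ± 0.15, 11.24 ± 0.057 and 11.95 ± 0.068 (SD, n = 2). PRMT5 rose by 0.54 ± 0.11 at immortalization (adjusted p = 0.0193, limma), by 0.71 ± 0.11 at the MYC step (adjusted p = 0.0126) and by 1.25 ± 0.11 over the whole route (adjusted p = 0.000681), a 2.37-fold change. The whole-route rise was 1.14 to 1.36 when any single array was left out, with adjusted p of at most 0.00463. The immortalization rise did not pass the test without BJ replicate 2 (0.43, adjusted p = 0.0918) or without either BJEL array (adjusted p = 0.113 and 0.0682), nor the MYC step rise without either BJEL array (adjusted p = 0.0663 and 0.0719).

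WDR77 (Entrez 79084, probe set 7918517; chromosome 1, 111439890 to 111449256) is a WD-repeat protein that binds PRMT5 in a complex of paired subunits and presents substrates to it. Its signals were 9.12 and 9.08 in BJ, 9.40 and 9.55 in BJEL, and 9.52 and 9.51 on the arrays labelled BJELM. Both BJEL arrays were above both BJ arrays, and the arrays labelled BJELM fell within the range of BJEL. WDR77 rose by 0.37 ± 0.089 at immortalization (adjusted p = 0.0365) and by 0.41 ± 0.089 over the whole route (adjusted p = 0.0171). Its change at the MYC step was 0.039, with a 95% interval from -0.18 to 0.26 (adjusted p = 0.839). With only the 2 lines compared, the WDR77 rise at immortalization did not pass (adjusted p = 0.0518). Nor did it with a variance trend (adjusted p = 0.0676) or every probe set tested (adjusted p = 0.0642). It passed with the replicate block, median centring and the filter at the median level (adjusted p = 0.015 to 0.0464). The mean of all probe sets left the values of WDR77 as they were, since it has 1 probe set. The immortalization rise did not pass the test when any single array was left out (adjusted p = 0.0518 to 0.161) or after quantile normalization (0.29, adjusted p = 0.105), and the whole-route rise did not pass without either BJ array or either array labelled BJELM (adjusted p = 0.0591 to 0.0888).

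The signal of PRMT5 minus that of WDR77 was 1.69 and 1.51 in BJ, 1.88 and 1.65 in BJEL, and 2.48 and 2.39 on the arrays labelled BJELM, on the log2 scale. The arrays labelled BJELM stood above all others, while BJ and BJEL overlapped. Means were 1.60 ± 0.12, 1.76 ± 0.16 and 2.44 ± 0.061 (SD, n = 2). Only the shift between lines can be read from this difference, since levels of different probe sets are not comparable, and an exact permutation test of 2 arrays against 2 cannot go below p = 0.333.

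The adaptors that bring substrates to PRMT5 were read beside it. CLNS1A, which carries Sm proteins to the enzyme, had signals of 10.02 and 10.43 in BJ, 10.58 and 10.69 in BJEL, and 11.06 and 11.29 on the arrays labelled BJELM, a stepwise order without overlap. It rose by 0.95 ± 0.16 over the whole route (adjusted p = 0.00652), and its changes of 0.41 and 0.54 in the steps did not pass (adjusted p = 0.142 and 0.0871). With the replicate number as a block both steps passed (adjusted p = 0.0163 and 0.00696). RIOK1 and COPRS, the other adaptors listed, are named although the naming rule did not pick them, with their values known. RIOK1, an atypical kinase that competes with CLNS1A for the same site on PRMT5, rose by 0.46 ± 0.12 at immortalization (adjusted p = 0.0438) and by 0.87 ± 0.12 over the whole route (adjusted p = 0.00303). Its MYC step change of 0.41 passed only with the block (adjusted p = 0.0821 without it, 0.0098 with it). COPRS, which directs PRMT5 to histones, changed by -0.21, 0.26 and 0.053 in the same order of steps and whole route, and passed in none of them (adjusted p = 0.227, 0.173 and 0.794).

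**Figure D3:**
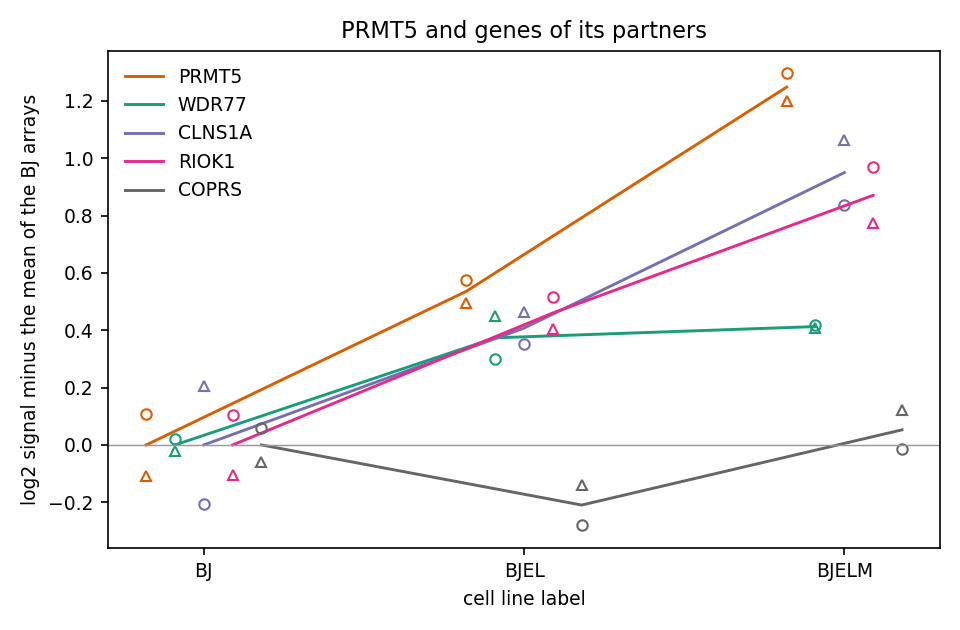
Log2 signal minus the mean of the BJ arrays (vertical axis) for PRMT5, WDR77 and the PRMT5 adaptors CLNS1A, RIOK1 and COPRS in the 3 cell lines as labelled (horizontal axis). Circles are replicate 1, triangles replicate 2, and lines join the means of the 2 arrays. On the arrays labelled BJELM PRMT5 lies at 1.25, CLNS1A at 0.95, RIOK1 at 0.87, WDR77 at 0.41 and COPRS at 0.053.

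Among the type I enzymes, PRMT3 (Entrez 10196, probe set 7938890; chromosome 11, 20387716 to 20509338), a cytosolic zinc-finger enzyme known for methylating the ribosomal protein RPS2, showed the largest change of the family. Signals were 6.84 and 6.92 in BJ, 7.67 and 7.56 in BJEL, and 8.20 and 8.25 on the arrays labelled BJELM. The 3 lines were clearly apart, with SDs of 0.060, 0.083 and 0.040. PRMT3 rose by 0.73 ± 0.089 at immortalization (adjusted p = 0.00387), by 0.61 ± 0.089 at the MYC step (adjusted p = 0.0123) and by 1.35 ± 0.089 over the whole route (adjusted p = 0.000347), which is 2.54-fold and place 319 among the 18417 genes ordered from the largest rise. When any single array was left out, the whole-route rise lay between 1.3 and 1.39 (adjusted p at most 0.00483) and the immortalization rise between 0.68 and 0.79 (adjusted p at most 0.0358). The MYC step rise did not pass without either BJEL array or without BJELM replicate 2 (adjusted p = 0.0553 to 0.0701). Its substrate RPS2 changed by 0.083 over the whole route (adjusted p = 0.548).

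PRMT1 (Entrez 3276, probe set 8030437; chromosome 19, 49676153 to 49688447) makes most of the asymmetric dimethylarginine of mammalian cells. It gave signals of 10.45 and 10.51 in BJ, 10.87 and 10.91 in BJEL, and 11.37 and 11.25 on the arrays labelled BJELM, again in a stepwise order without overlap. It rose by 0.41 ± 0.088 at immortalization (adjusted p = 0.0267), by 0.42 ± 0.088 at the MYC step (adjusted p = 0.034) and by 0.83 ± 0.088 over the whole route (adjusted p = 0.00136), a 1.78-fold change. The whole-route rise was 0.77 to 0.89 without any single array, with adjusted p of at most 0.0139. The immortalization rise did not pass without either BJ or either BJEL array (adjusted p = 0.0905 to 0.153), and the MYC step rise did not pass without any single array of the 6 (adjusted p = 0.0673 to 0.173).

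PRMT6 (Entrez 55170, probe set 7903457; chromosome 1, 107056674 to 107059294), a nuclear enzyme that methylates histone H3 near its start, had signals of 7.25 and 7.15 in BJ, 7.97 and 7.47 in BJEL, and 8.39 and 7.99 on the arrays labelled BJELM. The lines followed in order without overlap, with a wide gap between the arrays within BJEL (SD 0.35) and between those labelled BJELM (SD 0.28). It rose by 0.99 ± 0.20 over the whole route (1.99-fold, adjusted p = 0.0133). Its changes of 0.52 and 0.47 in the steps did not pass (adjusted p = 0.141 and 0.21), and with the replicate number as a block both did (adjusted p = 0.0114 and 0.0215). The whole-route rise did not pass without either BJ array or without BJELM replicate 1 (adjusted p = 0.051 to 0.0658), while it reached 2-fold and passed without BJELM replicate 2 (1.19), after quantile normalization (1.03) and after median centring (1.03).

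CARM1 (Entrez 10498, probe set 8025766; chromosome 19, 10871553 to 10923075) is a transcriptional coactivator that methylates histone H3. Signals were 10.45 and 10.40 in BJ, 10.31 and 10.33 in BJEL, and 10.88 and 10.72 on the arrays labelled BJELM. BJEL lay slightly below BJ and the arrays labelled BJELM above both. The change was -0.11 ± 0.092 at immortalization (adjusted p = 0.503), and CARM1 rose by 0.47 ± 0.092 at the MYC step (adjusted p = 0.0272) and by 0.37 ± 0.092 over the whole route (adjusted p = 0.0278). The MYC step rise did not pass when any single array was left out (adjusted p = 0.0505 to 0.143), and the whole-route rise passed only without BJELM replicate 2 among those 6 fits.

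PRMT2 and PRMT8 complete the type I enzymes. PRMT2 (Entrez 3275, probe set 8069450; chromosome 21, 46635674 to 46665124), an enzyme with an SH3 domain and weak activity, had signals of 8.20 and 7.75 in BJ, 7.66 and 7.54 in BJEL, and 7.87 and 7.37 on the arrays labelled BJELM. Replicate 1 was above replicate 2 in every line, and its spread within BJ and between the arrays labelled BJELM (SD 0.32 and 0.35) was close to the changes of -0.37 and -0.35 from BJ. Neither passed the test (adjusted p = 0.295 and 0.302), and with the replicate number as a block both were lower than BJ (adjusted p = 0.0383 and 0.0391). PRMT8 (Entrez 56341, probe set 7953181; chromosome 12, 3381349 to 3593973), a membrane-anchored enzyme best known from the brain, had signals between 5.18 and 5.39 on all 6 arrays, below the median level of all genes. Its largest change was 0.12, over the whole route, with a 95% interval from -0.1 to 0.34 (adjusted p = 0.428). No detection call was used here, so a low level and no expression cannot be told apart for it.

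PRMT7 (Entrez 54496, probe set 7996785; chromosome 16, 68311019 to 68360870), the monomethylating enzyme, had signals of 7.91 and 7.81 in BJ, 8.40 and 8.13 in BJEL, and 8.58 and 8.11 on the arrays labelled BJELM. Both derived lines were above BJ without overlap, and they overlapped each other. The changes from BJ of 0.40 ± 0.18 and 0.49 ± 0.18 did not pass (adjusted p = 0.185 and 0.0935). They passed with the replicate number as a block (adjusted p = 0.0235 and 0.0079), and the change on the arrays labelled BJELM also passed without BJELM replicate 2 (0.72, adjusted p = 0.0243), after quantile normalization (adjusted p = 0.0366) and after median centring (adjusted p = 0.0458). At the MYC step it changed by 0.084, with a 95% interval from -0.34 to 0.51. PRMT2, PRMT5, PRMT6 and PRMT7 had replicate 1 above replicate 2 in all 3 lines, as did 29.2% of all genes.

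The genes whose 6 values ran closest to the 3 members with the largest changes were found among the 9208 genes at or above the median level, by the root-mean-square difference after each gene's own mean was subtracted. For PRMT3 these were MRTO4, a ribosome assembly factor (0.0443 on the log2 scale), COIL, the coilin of Cajal bodies (0.0478), and SFXN4, a mitochondrial carrier protein (0.0589). For PRMT5 they were PWP2, a component of the small ribosomal subunit processome (0.0473), RUVBL1, an ATPase of chromatin remodelling complexes (0.0507), and KARS1, lysyl-tRNA synthetase (0.0598). The closest genes to PRMT6 were SLC25A17, a peroxisomal carrier (0.058), CD320, the transcobalamin receptor (0.077), and IFRD2 (0.0822). The profile of SLC25A17 lay about as close to PRMT6 as SFXN4 did to PRMT3, and the other neighbours of PRMT6 lay farther off.

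Outside the 9 genes, 3 further arginine methyltransferases were listed. NDUFAF7, which methylates a subunit of mitochondrial complex I, had signals of 7.59 and 7.47 in BJ, 8.17 and 7.94 in BJEL, and 8.74 and 8.87 on the arrays labelled BJELM. It rose by 0.52 ± 0.12 at immortalization (adjusted p = 0.0276), by 0.75 ± 0.12 at the MYC step (adjusted p = 0.0138) and by 1.28 ± 0.12 over the whole route (adjusted p = 0.000801). PRMT9, a second enzyme of symmetric methylation, and METTL23, a histone arginine methyltransferase, named although the rule did not pick them, changed by 0.40 and 0.075 over the whole route and did not pass (adjusted p = 0.115 and 0.798).

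Sm proteins, the classical substrates of PRMT5 and WDR77, and the SMN complex that loads them on small nuclear RNAs were followed over 18 measured genes. Over the whole route 13 of the 18 rose and 0 fell, where 15.1% of all genes rose and 13.1% fell, with a median change of 0.79 beside 0.011 for all genes. At immortalization 8 rose (10.4% of all genes), with a median of 0.52. At least 2-fold over the whole route were GEMIN4 (1.34 ± 0.20, adjusted p = 0.00432), GEMIN5 (1.15 ± 0.11, adjusted p = 0.000904), SNRPD1 (1.20 ± 0.33, adjusted p = 0.0402) and SNRPF (1.03 ± 0.11, adjusted p = 0.00133). GEMIN4 was already 1.21 ± 0.20 higher in BJEL (adjusted p = 0.0108), though not at least 2-fold with an adjusted p under 0.05 when BJ replicate 1 or BJEL replicate 1 was left out. SNRPD1, a core Sm protein, had signals of 8.15 and 8.81 in BJ, 8.96 and 9.49 in BJEL, and 9.31 and 10.05 on the arrays labelled BJELM, so replicate 2 was the higher array in every line. At the MYC step 3 of the 18 rose (4.53% of all genes). Without BJ replicate 1 the count at least 2-fold over the whole route was 2 in place of 4, and with the block 13 genes of the list passed at immortalization and 7 at the MYC step.

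Genes of the S-adenosylmethionine cycle and of methylthioadenosine salvage supply the methyl donor and clear its products. Over the whole route 8 of the 20 measured rose (15.1% of all genes) and 0 fell (13.1% of all genes), with a median change of 0.27. AHCY, which clears S-adenosylhomocysteine, had signals of 9.94 and 9.83 in BJ, 10.19 and 10.00 in BJEL, and 11.18 and 10.75 on the arrays labelled BJELM. It rose by 1.08 ± 0.16 over the whole route (adjusted p = 0.00395) and by 0.87 ± 0.16 at the MYC step (adjusted p = 0.0219), while its change of 0.21 at immortalization did not pass (adjusted p = 0.439). ENOPH1, an enzyme of methionine salvage, rose by 1.03 ± 0.11 (adjusted p = 0.00137) and SMS, spermine synthase, by 1.09 ± 0.098 (adjusted p = 0.00081) over the whole route, and both had risen in BJEL by 0.68 and 0.74. MAT2A, which makes S-adenosylmethionine, and MTAP, which degrades methylthioadenosine, an inhibitor of PRMT5, were looked up after their values were known. MAT2A rose by 0.49 ± 0.12 over the whole route (adjusted p = 0.0234). MTAP had signals of 7.93 and 7.86 in BJ, 8.44 and 8.15 in BJEL, and 8.95 and 8.74 on the arrays labelled BJELM, and it rose by 0.95 ± 0.13 over the whole route (adjusted p = 0.00309). Without the block 3 genes of the list rose and 1 fell at immortalization (10.4% and 7.13% of all genes), and 2 rose at the MYC step (4.53%). With the block 8 were higher and 2 lower at immortalization and 6 higher at the MYC step, with no share of all genes counted.

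RGG-motif proteins and ribosomal proteins are further substrates of the enzymes. Of the 32 measured, 13 rose (15.1% of all genes) and 0 fell (13.1% of all genes) over the whole route, with a median change of 0.39. At immortalization 5 rose, close to the 10.4% over all genes, with a median of 0.31. At the MYC step 2 rose (4.53% of all genes) and 0 fell (6.28% of all genes), with a median of 0.070 beside 0.029 for all genes. FBL, the fibrillarin of nucleoli and a textbook PRMT1 substrate, had signals of 11.02 and 11.34 in BJ, 11.80 and 11.85 in BJEL, and 12.34 and 12.43 on the arrays labelled BJELM. It was the only gene of this list at least 2-fold higher over the whole route (1.21 ± 0.12, adjusted p = 0.00122), and 2 genes were without BJ replicate 1 or without BJELM replicate 2. MRE11, a DNA repair nuclease methylated by PRMT1, followed another course. Its signals were 6.74 and 7.02 in BJ, 8.0 and 7.93 in BJEL, and 7.64 and 7.45 on the arrays labelled BJELM, highest in BJEL. It rose by 1.08 ± 0.13 at immortalization (adjusted p = 0.00338), not at least 2-fold without BJ replicate 1. With the block 18 genes of the list passed at immortalization, and 22 higher and 1 lower over the whole route, with no share of all genes counted for the block.

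**Figure D4:**
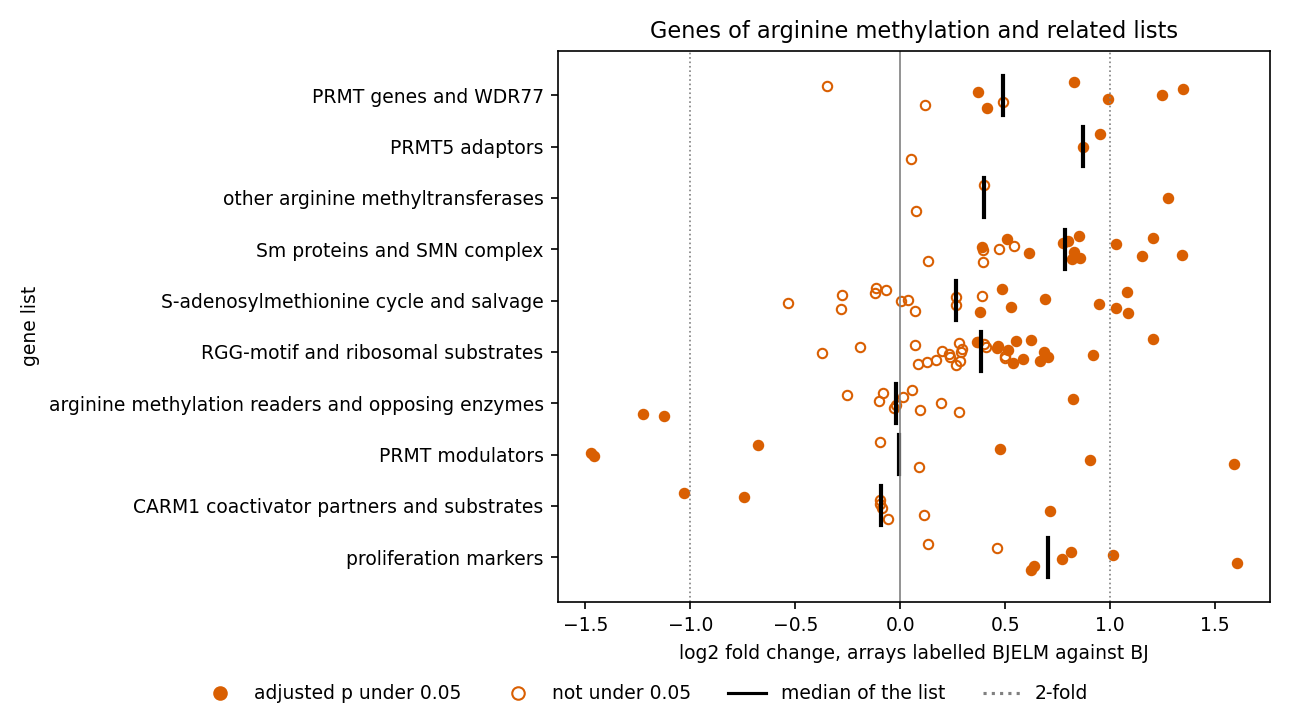
Log2 fold change on the arrays labelled BJELM against BJ (horizontal axis) for every measured gene of each list (vertical axis), with the median of the list as a bar. Filled points passed an adjusted p of 0.05, open points did not, and dotted lines mark 2-fold. The lists of Sm proteins and of PRMT5 adaptors have medians of 0.79 and 0.87, while readers and opposing enzymes and CARM1 partners have medians of -0.019 and -0.093.

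Of 13 measured readers of methylarginine and enzymes that oppose or degrade it, 1 rose (15.1% of all genes) and 2 fell (13.1% of all genes) over the whole route, with a median change of -0.019. These counts are near those of all genes. The genes that fell were DDAH1 and DDAH2, which break down free asymmetric dimethylarginine and are not demethylases of proteins. DDAH1 had signals of 12.15 and 12.07 in BJ, 11.35 and 11.48 in BJEL, and 10.96 and 10.81 on the arrays labelled BJELM, a stepwise fall without overlap, and it fell by 1.22 ± 0.098 on the log2 scale (adjusted p = 0.000585). DDAH2 fell by 1.13 ± 0.27 (adjusted p = 0.0253), and the count at least 2-fold was 1 in place of 2 without BJ replicate 1 or without BJELM replicate 2. TOP3B, a topoisomerase that works with the methylarginine reader TDRD3 and the gene of this list that rose, was 0.82 ± 0.10 higher (adjusted p = 0.00231).

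Of the proteins that bind and modulate the enzymes, 3 of 8 rose and 3 of 8 fell over the whole route, beside 15.1% and 13.1% of all genes. PDCD2L, listed as a modulator and related to PDCD2, rose by 1.59 ± 0.096 (adjusted p = 0.000274), with signals of 7.12 and 7.20 in BJ, 8.01 and 7.83 in BJEL, and 8.75 and 8.75 on the arrays labelled BJELM. EPB41L3, a membrane skeleton protein that binds PRMT3 and PRMT5, fell by 1.48 ± 0.12 (adjusted p = 0.000567), with signals of 7.53 and 7.51 in BJ, 6.38 and 6.09 in BJEL, and 6.10 and 5.99 on the arrays labelled BJELM. PRDM1, a transcriptional repressor that recruits PRMT5 in germ cells, fell by 1.46 ± 0.11 (adjusted p = 0.000546). The falls of EPB41L3 and PRDM1 were at least 2-fold already at immortalization (-1.28 and -1.29, adjusted p = 0.00172 and 0.00159).

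Among the partners and substrates of CARM1, 1 of 8 rose (15.1% of all genes) and 2 of 8 fell (13.1% of all genes) over the whole route. These counts are too small to set apart from those shares. The median change was -0.093. NCOA1, a nuclear receptor coactivator that recruits CARM1 and related enzymes to promoters, had signals of 8.87 and 8.81 in BJ, 8.73 and 8.81 in BJEL, and 7.96 and 7.66 on the arrays labelled BJELM. It changed by -0.071 at immortalization (adjusted p = 0.75) and fell by 0.96 ± 0.12 at the MYC step (adjusted p = 0.00746) and by 1.03 ± 0.12 over the whole route (adjusted p = 0.00173). The whole-route fall was under 2-fold without BJ replicate 1, without BJELM replicate 2 and after median centring. At the MYC step the arrays did not overlap for either gene, CARM1 being higher and NCOA1 lower.

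Proliferation markers, given as a gauge of growth, had medians of 0.98 at immortalization, 0.70 over the whole route and -0.38 at the MYC step, where 0 of 8 passed and, with the block, 5 of 8 were lower. MCM2, a subunit of the replicative helicase, rose by 1.38 ± 0.19 and 1.61 ± 0.19 against BJ (adjusted p = 0.00544 and 0.00179), and CDK1, the mitotic kinase, by 1.41 ± 0.28 and 1.01 ± 0.28 (adjusted p = 0.0206 and 0.0417). AURKA and BUB1, kinases of the spindle and its checkpoint, rose by 1.02 and 1.08 in BJEL and by 0.64 and 0.62 on the arrays labelled BJELM. The number at least 2-fold at immortalization was 4 and fell to 1 without BJ replicate 1. PRMT1, PRMT3, CARM1 and PRMT5 rose at the MYC step and 0 of these 8 markers did, and whether the enzymes and the markers differ in this was not tested.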

How the data were processed

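Gene expression was measured on 6 arrays (Affymetrix Human Gene ST), 2 per cell line and grouped by the cell line label. The authors ran RMA with its defaults over the 6 scans (Affymetrix Expression Console 1.3.1) and deposited log2 signals of 33297 probe sets. RMA sets the arrays to a common distribution, so a shift of all genes would not be seen. Of the probe sets, 12083 were not listed with a gene and 21214 were, 19460 of them with 1 symbol and 1754 with several, which were not used. This left 18417 genes. For 769 genes several probe sets were at hand, and the brightest on average was used. By Entrez ID 18389 matched RefSeq (GRCh38.p14), the source of coordinates and promoters. Of 124 entries in 9 lists, 113 were measured. SMN1, PABPN1, RBMX and RPS10 had only probe sets with several symbols, and the other entries without a value are not reported here.

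Changes were tested with limma 3.58.1 in R 4.3.3, two-sided, in 1 fit of 3 line means (3 residual and 3.13 prior degrees of freedom), with Benjamini-Hochberg adjustment over all genes. The number of arrays limits the precision. No exact test of 2 against 2 arrays goes below p = 0.333. The procedure was tested on simulated data with independent noise on each array. These held no replicate effect, so the test does not bear on the choice of a block. The genes and lists were chosen with earlier results of these data known. Besides the 9 genes, MYC and TERT, a rule set which genes the text names. From each list it took up to 4 genes with the largest changes among those at least 2-fold. Where there were none, it took the gene with the highest mean. It also took the 3 closest profiles for each of 3 members. RPS2, TOP3B and VIM were named outside this rule with earlier results known, as were the genes marked so above. The main fit had no replicate block, so its p-values are not paired. Deviations from the line means correlated at 0.448, 0.481 and 0.553 between lines, so the replicate number was used as a block in an alternative fit. The labels do not say what a number shares. Alternatives were leaving out each array, the replicate block, only the 2 lines compared, quantile normalization, median centring, a variance trend, a filter at the median level, every probe set, the mean of all probe sets, a 1.5-fold minimum, and the methods' t-test in plain form. The study's chromatin and genotype data were not analysed here.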

Additional observations from a re-analysis of the deposited data

How the results depend on the processing

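Of 456 changes of the 9 genes under the alternatives, 368 kept their direction and side of the threshold, 72 no longer passed, 9 newly passed and 7 changed sign. The entries for the 1.5-fold minimum repeat the main fit, so they were bound to be among the 368. The mean of all probe sets left the signals of the 9 genes as they were, since each has 1 probe set. The changes of sign, all in changes that had not passed, came with an array left out: PRMT8 at immortalization (-0.0081 without BJ replicate 2 and -0.066 without BJEL replicate 2, up to 0.082 without another array), and at the MYC step PRMT2 (-0.037 without BJEL replicate 2 and -0.23 without BJELM replicate 1, up to 0.27), PRMT7 (-0.055 and -0.15 without the same arrays, up to 0.32) and WDR77 (-0.036 without BJEL replicate 1, up to 0.11). With an array left out, the genes at least 2-fold numbered 0 to 0 at immortalization, 2 to 3 over the whole route and 0 to 0 at the MYC step, and the genes past the adjusted p 1 to 3, 3 to 6 and 0 to 2, in place of 4, 6 and 4. With a 1.5-fold minimum 1, 4 and 2 genes were called in place of 0, 2 and 0. At immortalization that minimum called 2110 of all 18417 genes in place of 954, so 1 of 9 is near the share of all genes. For the whole route and the MYC step no such share is given here, and those counts are not read as a result about these genes. The methods' t-test with Benjamini-Hochberg adjustment called 0 genes in each comparison by either rule, as it did over all genes. Unadjusted, it passed 2 at immortalization, 4 over the whole route and 2 at the MYC step, in place of 4, 6 and 4. CARM1 and PRMT6 no longer passed over the whole route. The share of all genes that this t-test passed unadjusted is not given here, so these counts have no background beside them. At the MYC step 2 also passed with only the 2 lines compared and with every probe set tested. The replicate block passed 7 in place of 4 at immortalization, and it changed no call of the 9 genes beyond those of PRMT2, PRMT6 and PRMT7. PRMT8 lies below the median level and has no value under that filter. Dim genes such as PRMT8 are limited by signal near background.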
